A study of Mus musculus with 8 samples.

Results

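The glutathione S-transferase (Gst), UDP-glucuronosyltransferase (Ugt) and cytosolic sulfotransferase (Sult) genes of mouse liver were followed across a hepatic knockout of Foxo1. Members were the protein-coding genes of the deposited table whose symbol matched the Gst classes alpha, kappa, mu, omega, pi, theta and zeta, the Ugt families 1 to 3, or Sult. They numbered 62 of 25690 genes, of which 22 were Gst, 20 Ugt and 20 Sult genes. Sult5a1 and Ugt2a1 match by name and were not analysed here. Liver RNA of 4 wildtype control libraries (numbers 1, 3, 10 and 12 in their titles) was compared with that of 4 libraries from mice with a hepatic FOXO1 knockout (3, 9, 10 and 11). Values per library below follow this order. The sources used here do not give strain, age, sex, feeding state or how Foxo1 was deleted. Nothing in the labels ties each library to an animal of its own, so the p-values below reflect library-to-library spread, which may be technical.

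Conjugation makes drugs, hormones, bile acids and reactive products of metabolism more soluble, so that they can be carried out of the hepatocyte. Gst enzymes join electrophiles to glutathione, Ugt enzymes transfer a sugar from a UDP-sugar, mostly glucuronic acid, and Sult enzymes transfer sulfate from the donor PAPS. In liver the genes are known to answer to the nuclear receptors CAR, PXR and PPARalpha, to the aryl hydrocarbon receptor, to the stress factor Nrf2 and to sex-dependent growth hormone signals. Insulin acts on hepatic gene expression in part by driving the forkhead factor FoxO1 out of the nucleus.

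Foxo1 was low in all 4 knockout libraries. The FPKM of Foxo1 (fragments per kilobase of transcript, scaled to library depth) was 3.21, 3.01, 3.38 and 3.81 in wildtype and 0.224, 0.267, 0.375 and 0.212 in knockout liver (log2 change -1.78, SE 0.09, limma adjusted p = 3.62e-05). From the smallest FPKM steps of long genes, depth was estimated at about 26900000 to 35500000 fragments per library. The hepatocyte gene Alb was at 20877 to 27822 FPKM in 7 libraries and listed at 0 in knockout 10, a value that can stand for a failed estimate. Knockouts 3 and 11 stood apart in 20 acute phase genes, whose summed level was 114989 and 109347 FPKM in these, against 15250.3 and 15923 in knockouts 9 and 10 and 12384 to 13308 in wildtype. Over 6 lymphocyte and neutrophil markers the sum was 57.4 (knockout 3) and 136 FPKM (knockout 11), nearly all of it from S100a8 and S100a9, against 3.77 and 6.98 in knockouts 9 and 10 and 1.83 to 5.49 in wildtype. For the other markers it was 24.0 to 27.4 in wildtype and 16.9 to 28.3 in knockout liver over 6 endothelial genes, 48.3 to 66.7 and 38.1 to 65.4 over 6 macrophage genes, 45.8 to 56.0 and 22.8 to 53.7 over 5 stellate genes, and 11.3 to 16.7 and 15.6 to 24.7 over 5 cholangiocyte genes. Of 7 hepatocyte markers 1 was called, Cyp2e1 (log2 change -0.60, SE 0.16, limma adjusted p = 0.0318), and not without knockouts 3 and 11 (-0.43, 0.134). Of 4 gut and kidney markers Vil1, Umod and Slc34a1 were near or at 0, and Fabp2, the only tested one, was at 114, 87.6, 95.7 and 92.9 FPKM in wildtype and 20.2, 58.5, 71.5 and 25.1 in knockout liver (log2 change -1.32, limma adjusted p = 0.0393; without knockouts 3 and 11 -0.58, 0.0454). The part of these markers in the results was not tested. Pairs of values below for a fit without knockouts 3 and 11 are the log2 change and its limma adjusted p. In bulk liver, fewer cells of a type and less RNA per cell cannot be told apart.

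Called conjugation genes were all lower in the knockout liver, and most were Gst genes. Genes averaging 1 FPKM or more across libraries were tested. Of 20 tested Gst genes 8 were lower in the knockout liver and 0 higher. Of 17 tested Ugt genes 2 were lower and 0 higher, and of 6 tested Sult genes 1 was lower and 0 higher (limma on log2(FPKM + 1), Benjamini-Hochberg adjusted p under 0.05 over all tested genes). Among all 10250 tested genes 11.7% were called lower and 2.70% higher. The share of lower genes was thus 40.0% in the Gst family, 11.8% in the Ugt family, close to the background, and 16.7% in the Sult family, where it stands for a single gene. At an unadjusted p under 0.05, in either direction, the numbers were 13 Gst, 5 Ugt and 5 Sult genes, where 30.5% of all tested genes passed, so that the Ugt count is near the background. The median log2 change was -0.46 over the Gst genes, 0.0019 over the Ugt genes and -0.46 over the Sult genes, against -0.076 over all tested genes. Each knockout library lay below each wildtype library for 9 Gst, 2 Ugt and 2 Sult genes, where 16.5% of all tested genes did so, and above for 0 members, against 4.83% of all tested genes. Of all called genes 18.8% were higher, and 40.2% with median-ratio scaling. With that scaling 7 Gst genes, 1 Ugt and 1 Sult gene were lower, and 1 Ugt gene, Ugt1a6a, was higher. Of all 10250 tested genes 720 were lower and 485 higher in that fit, and both Ugt counts lay near these background shares.

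**Figure D1:**
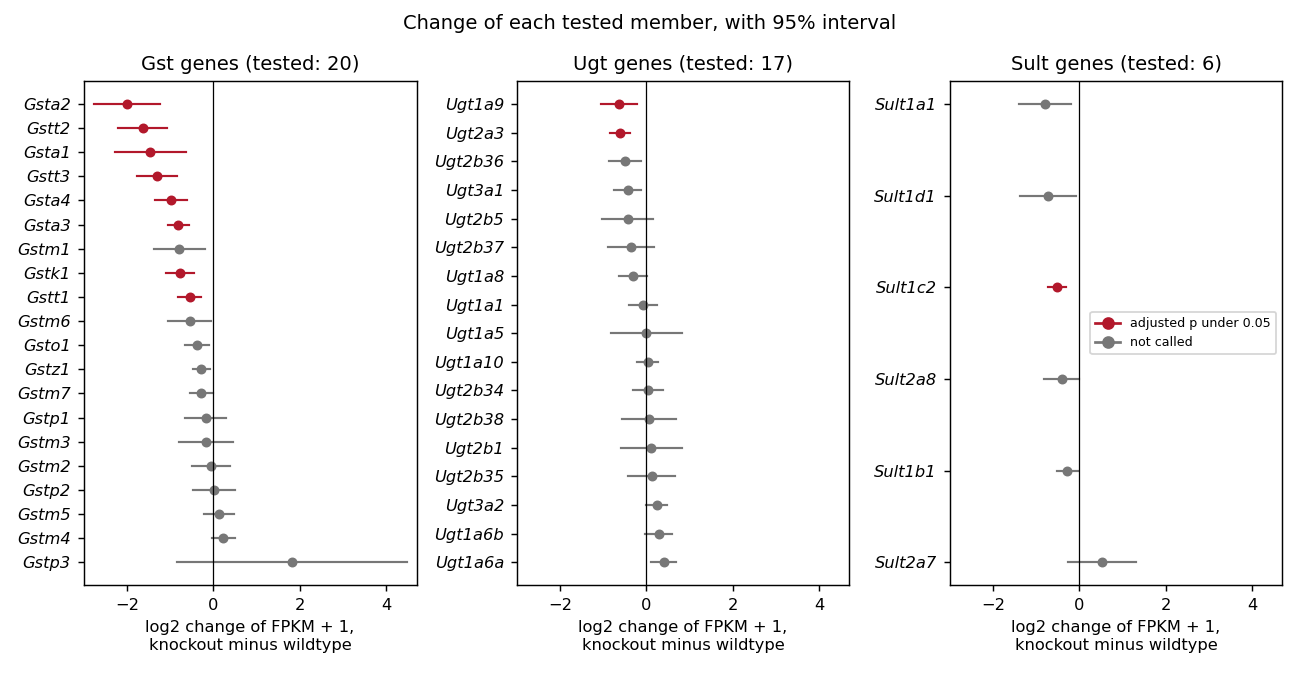
Each tested member is drawn with its log2 change of FPKM + 1, knockout minus wildtype (x axis), and the 95% interval of that change, in 1 panel per family; called genes are red and the others grey. All 11 called members lie left of 0: 8 Gst, 2 Ugt and 1 Sult gene, while the widest interval is that of Gstp3.

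Alpha class Gst genes fell together. The class holds hepatic enzymes with broad substrate ranges: Gsta3 is the main constitutive form of mouse liver, Gsta4 prefers lipid peroxidation products such as hydroxynonenal, and Gsta1 and Gsta2 are known for induction by antioxidants. All 4 genes were called, with means 3.90-fold (Gsta2), 2.87-fold (Gsta1), 1.96-fold (Gsta4) and 1.75-fold (Gsta3) lower in the knockout liver. The RefSeq promoter windows of Gsta1, Gsta2 and Gsta3 (GRCm38.p6, the 250 bases before the annotated start, 5′ to 3′) are shown because these genes moved in the same direction. Capitals mark the letters TGACNNNGC, the core of the antioxidant response element bound by Nrf2, which occur in the window of Gsta3 alone of them. Bases further upstream were not searched, so Gsta1 and Gsta2 may hold such letters outside their windows.
Gsta1 chr9:78230419-78230668 plus strand: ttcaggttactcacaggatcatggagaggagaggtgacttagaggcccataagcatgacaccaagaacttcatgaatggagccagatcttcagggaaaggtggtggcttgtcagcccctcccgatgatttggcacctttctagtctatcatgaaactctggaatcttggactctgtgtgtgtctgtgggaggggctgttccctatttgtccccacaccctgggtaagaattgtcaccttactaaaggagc
Gsta2 chr9:78347146-78347395 minus strand: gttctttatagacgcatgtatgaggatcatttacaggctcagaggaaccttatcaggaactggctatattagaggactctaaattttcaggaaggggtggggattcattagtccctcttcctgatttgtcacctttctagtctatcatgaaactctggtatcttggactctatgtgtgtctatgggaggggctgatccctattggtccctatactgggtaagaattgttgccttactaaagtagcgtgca
Gsta3 chr1:21240335-21240584 plus strand: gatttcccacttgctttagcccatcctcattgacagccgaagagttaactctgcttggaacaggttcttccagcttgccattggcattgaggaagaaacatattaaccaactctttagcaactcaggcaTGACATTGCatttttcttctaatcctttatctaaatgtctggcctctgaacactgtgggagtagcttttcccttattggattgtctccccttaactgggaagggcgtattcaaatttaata
The Gsta1 and Gsta2 windows were 70.5% identical in a global alignment. Whether the windows have a part in the common direction was not tested.

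Gsta3 (ENSMUSG00000025934, chromosome 1, 21240589 to 21265661, mm10) was the most abundant alpha gene. Its FPKM was 1696, 1485, 1419 and 1783 in wildtype and 842, 995, 899 and 901 in knockout liver, so the groups did not overlap and the 4 knockout libraries lay close to each other (means 1596 ± 172 and 909 ± 63.5, SD, n = 4; log2 change -0.81, SE 0.11, limma adjusted p = 0.00398). Gsta4 (chromosome 9, 78182774 to 78209349) was at 140.3, 116, 111 and 116 FPKM in wildtype and 52.8, 67.9, 79.1 and 46.4 in knockout liver (log2 change -0.98, SE 0.16, limma adjusted p = 0.00655). Its groups did not overlap either, and knockouts 3 and 11 were the lowest. Gsta2 (chromosome 9, 78331018 to 78355788) had the steepest fall of the 43 tested members, from 44.9, 36.8, 28.0 and 40.1 FPKM in wildtype to 4.37, 12.2, 16.1 and 5.81 in knockout liver (log2 change -1.99, SE 0.34, limma adjusted p = 0.00727). Knockouts 3 and 11 were again lowest, but knockouts 9 and 10 also stayed under the lowest wildtype library. Without knockouts 3 and 11 the log2 changes were -0.75 for Gsta3 (limma adjusted p = 0.0181), -0.71 for Gsta4 (0.0228) and -1.34 for Gsta2 (0.0143).

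Gsta1 (chromosome 9, 78230656 to 78242684) was the least abundant alpha gene and the least certain. Its FPKM was 18.7, 15.3, 8.33 and 14.4 in wildtype and 1.93, 6.45, 8.43 and 2.96 in knockout liver (log2 change -1.46, SE 0.37, limma adjusted p = 0.0300), so knockout 10 reached the level of wildtype 10. The call was lost on leaving out knockouts 3 and 11 (-0.81, limma adjusted p = 0.122), without wildtype 1, 3 or 12 or knockout 3 or 11 alone (limma adjusted p of 0.0645 to 0.0873), with no filter on low values (0.0789) or after removal of the length trend (-1.14, 0.0773). Gsta1 shares 89.7% of its 50-base windows with transcripts of other genes and Gsta2 64.2%, mostly each other and the predicted alpha genes Gm3776 and Gm10639, so the split of reads between them is uncertain. Gm10639, which is no member and was named after its values were seen, was at 9.94, 7.07, 4.61 and 7.60 FPKM in wildtype and 0.704, 2.72, 3.19 and 1.23 in knockout liver (log2 change -1.54, SE 0.30, limma adjusted p = 0.0112). The sum of Gsta1, Gsta2 and Gm10639 fell by 1.93 on the log2 scale (SE 0.38, limma adjusted p = 0.0113). Gm3776, which shares 82.9% of the windows of Gsta1, was not part of the sum, so the sum does not settle the split of reads.

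The theta class, whose enzymes handle small halogenated compounds, fell in all 3 tested genes. Gstt1, Gstt3 and Gstt2 lie beside each other on chromosome 10, between 75774115 and 75837424, with Gstt4 among them. Gstt2 was at 87.8, 46.3, 70.3 and 75.5 FPKM in wildtype and 14.5, 18.9, 31.8 and 23.3 in knockout liver (log2 change -1.64, SE 0.25, limma adjusted p = 0.00505). Gstt3 was at 36.4, 34.6, 33.8 and 37.0 FPKM in wildtype and 13.3, 8.93, 13.8 and 21.7 in knockout liver (log2 change -1.30, SE 0.21, limma adjusted p = 0.00594), and knockout 9 was its lowest library. For neither gene did the groups overlap, and the wildtype libraries of Gstt3 spanned only 33.8 to 37.0 FPKM. Gstt1, the most abundant theta gene, was at 271, 247, 245 and 284 FPKM in wildtype and 169.6, 152, 185 and 212 in knockout liver (log2 change -0.55, SE 0.12, limma adjusted p = 0.0150). Its groups did not overlap, yet the call was lost when the length trend was removed (-0.28, 0.102), with median-ratio scaling (0.0634), with quantile normalization (-0.32, 0.0536) or without wildtype 1 (0.0526). Without knockouts 3 and 11 the 3 genes passed (log2 changes -0.64, -1.44 and -1.59 for Gstt1, Gstt2 and Gstt3), and those of Gstt1 and Gstt3 were larger there than with all libraries.

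Gstk1, the single kappa gene, encodes an enzyme of mitochondria and peroxisomes. Its FPKM was 308, 260.1, 269 and 273 in wildtype and 125, 166, 205 and 160.3 in knockout liver (log2 change -0.77, SE 0.14, limma adjusted p = 0.00983). The groups did not overlap, and the change was -0.51 with quantile normalization, where it still passed (0.0372). Gstz1, the zeta gene, encodes maleylacetoacetate isomerase of tyrosine breakdown. It was at 496, 449.6, 483 and 516 FPKM in wildtype and 429, 372, 393 and 409 in knockout liver, and although each knockout library lay below each wildtype library it did not pass (log2 change -0.28, SE 0.09, limma adjusted p = 0.0699). Gsto1, an omega gene whose enzyme reduces dehydroascorbate, was at 73.2, 63.8, 69.3 and 54.6 FPKM in wildtype and 45.6, 56.2, 42.8 and 55.4 in knockout liver, with overlap (log2 change -0.38, SE 0.13, limma adjusted p = 0.0779). It passed with library weights (-0.47, 0.0285).

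**Figure D2:**
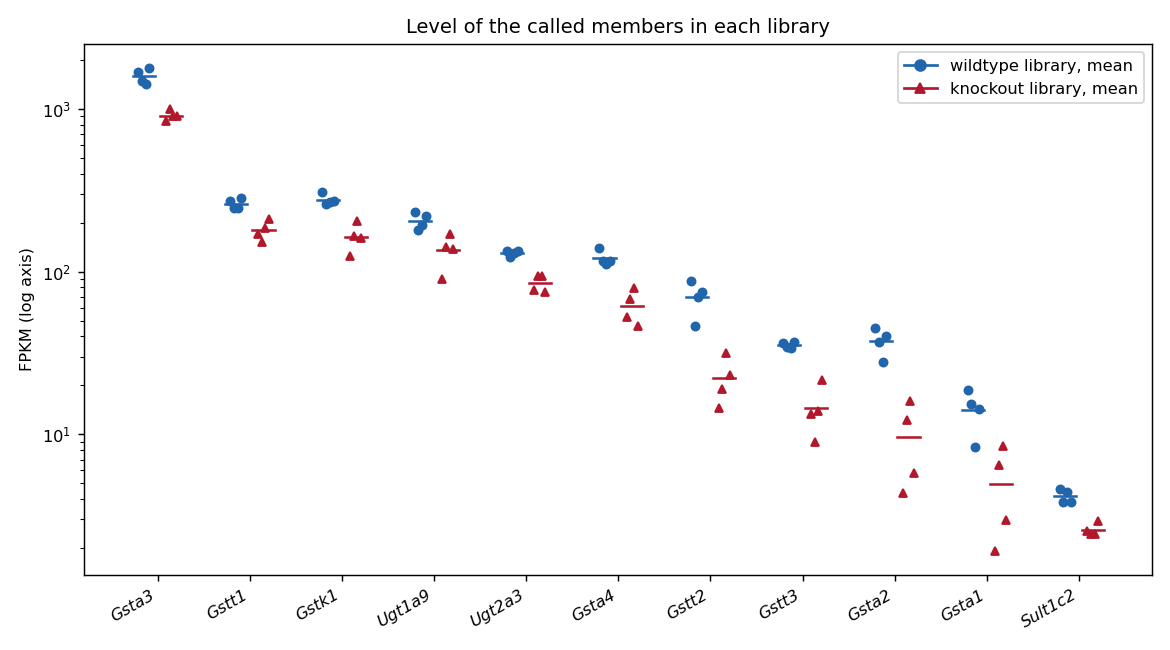
FPKM on a log axis is plotted for the 11 called members, with 1 point per library (blue circles wildtype, red triangles knockout) and a bar at each group mean. The genes run from Gsta3, at 1596 ± 172 FPKM in wildtype and 909 ± 63.5 in knockout liver, to Sult1c2, at 4.16 ± 0.394 and 2.59 ± 0.231 (SD, n = 4), and the groups overlap for Gsta1.

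Mu class genes were not called, although the most abundant of them was lower in every knockout library. Gstm1, the main hepatic mu enzyme, was at 1414, 1438, 1283 and 1098 FPKM in wildtype and 445, 1009, 1079.6 and 666 in knockout liver (log2 change -0.79, SE 0.26, limma adjusted p = 0.0736). Knockout 3 was the lowest library, knockout 11 the next, and knockouts 9 and 10 lay just under wildtype 12. Gstm1 passed with library weights (0.0366), without knockout 9 (0.0491) and without knockout 10 (0.0376), and was further from passing without knockouts 3 and 11 (-0.32, 0.176). Gstm6 showed the same order of knockout libraries, 40.1, 79.4, 90.5 and 54.0 FPKM against 97.6, 92.6, 90.5 and 88.0 in wildtype (log2 change -0.54, SE 0.22, limma adjusted p = 0.134), and passed without knockout 10 (-0.72, 0.0461), but was far from passing without knockouts 3 and 11 (-0.12, 0.473). Gstm2 and Gstm3 changed by -0.059 and -0.17 with 95% intervals of -0.50 to 0.39 and -0.78 to 0.45, and both signs turned without knockouts 3 and 11 (0.17 and 0.26). In Gstm3 knockout 3 was at 71.9 FPKM and knockout 10 at 189.9, on either side of the wildtype range of 122 to 177. Gstm4, Gstm5 and Gstm7 changed by 0.23, 0.13 and -0.27 (limma adjusted p = 0.228, 0.632 and 0.150). The 7 mu genes form a cluster on chromosome 3 (107895821 to 108044894), and 28.8% of the windows of Gstm3 and 23.1% of those of Gstm1 occur in other genes.

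None of the pi class genes was called, although Gstp1 and Gstp2 had the highest FPKM of all members. Their enzymes conjugate electrophiles such as acrolein. The windows before Gstp1, Gstp2 and Gstp3 are shown because the first pair had the same pattern over libraries and the last another. Capitals mark TGANTCA, the letters bound by AP-1, the dimer of Jun and Fos proteins.
Gstp1 chr19:4037913-4038162 minus strand: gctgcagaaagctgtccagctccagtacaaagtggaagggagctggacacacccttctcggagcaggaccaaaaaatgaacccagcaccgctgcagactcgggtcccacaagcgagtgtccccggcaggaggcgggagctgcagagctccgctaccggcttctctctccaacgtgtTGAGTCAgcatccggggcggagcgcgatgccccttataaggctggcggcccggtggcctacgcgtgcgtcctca
Gstp2 chr19:4042222-4042471 minus strand: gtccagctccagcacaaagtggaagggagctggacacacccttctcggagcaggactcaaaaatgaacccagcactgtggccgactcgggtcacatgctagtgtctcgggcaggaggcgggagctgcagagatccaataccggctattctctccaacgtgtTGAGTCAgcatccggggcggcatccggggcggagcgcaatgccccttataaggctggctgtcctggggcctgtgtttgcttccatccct
Gstp3 chr19:4059448-4059697 minus strand: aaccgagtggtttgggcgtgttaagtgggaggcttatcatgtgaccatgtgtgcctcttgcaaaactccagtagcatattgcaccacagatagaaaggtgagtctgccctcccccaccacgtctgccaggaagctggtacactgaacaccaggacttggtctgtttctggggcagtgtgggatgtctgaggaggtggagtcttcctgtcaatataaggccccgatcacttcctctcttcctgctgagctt
The Gstp1 and Gstp2 windows were 78.1% identical and both held the AP-1 letters. The Gstp3 window was 47.7% identical to that of Gstp1 and held none of the 4 motifs searched. Whether the AP-1 letters have a part in the pattern over libraries was not tested.

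Gstp1 (chromosome 19, 4035407 to 4037985) was at 3133, 5207, 4333 and 3517 FPKM in wildtype and 2662, 4157, 4443 and 3114 in knockout liver (log2 change -0.17, SE 0.21, limma adjusted p = 0.629, 95% interval -0.65 to 0.30). Gstp2 was at 1405, 2426, 2029 and 1490.2 FPKM in wildtype and 1392, 2158, 2201 and 1597 in knockout liver (log2 change 0.0087, SE 0.22, limma adjusted p = 0.986, 95% interval -0.47 to 0.49). In both genes wildtype 3 and 10 and knockouts 9 and 10 were high and the other libraries low, whatever the genotype. They share 62.3% and 72.6% of their windows with other transcripts, mostly each other. The split of reads between them is thus uncertain, and their patterns over libraries may not be independent. Their sum changed by -0.12 (limma adjusted p = 0.761). The sign of the Gstp1 change turned with the length trend removed (0.16) and without knockouts 3 and 11 (0.11).

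Gstp3 (ENSMUSG00000058216, chromosome 19, 4057477 to 4059569) fell into widely separate levels that did not follow genotype. Its FPKM was 1135, 42.1, 50.2 and 54.4 in wildtype and 758, 667, 52.0 and 800.2 in knockout liver. Wildtype 1 and knockouts 3, 9 and 11 were thus at 667 FPKM or more, and the other 4 libraries at 54.4 or less. The difference between genotypes was not called (log2 change 1.82, SE 1.18, limma adjusted p = 0.338), and its 95% interval, -0.83 to 4.47, covers large changes both ways. The change was 0.79 without knockouts 3 and 11 (0.780). None of its 50-base windows occurs in another annotated transcript.

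In the Ugt family 15 of 17 tested genes were not called. Ugt1a enzymes act on bilirubin, phenols and many drugs. Their genes are made from first exons of their own joined to shared last exons, so each Ugt1a transcript shares 38.9% to 80.7% of its windows with others. The locus lies on chromosome 1 (88055388 to 88220002), and the sources used here do not say how its reads were divided. Ugt1a9, the most abundant of them, was at 231, 181, 192 and 220.0 FPKM in wildtype and 90.0, 142, 171 and 138 in knockout liver (log2 change -0.63, SE 0.18, limma adjusted p = 0.0479). Its groups did not overlap, and knockout 3 was far the lowest. The call was lost with the length trend removed (0.0764), median-ratio scaling (0.0733), quantile normalization (-0.38, 0.172), no filter on low values (0.0998), without any single library but knockout 10 (limma adjusted p up to 0.126) and without knockouts 3 and 11 (-0.39, 0.118). The sum of the 9 Ugt1a genes was 329 ± 33.6 and 271 ± 32.5 FPKM (SD, n = 4; log2 change -0.28, limma adjusted p = 0.152).

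Ugt1a1, the bilirubin enzyme, was at 59.7, 41.4, 48.8 and 51.6 FPKM in wildtype and 43.7, 51.0, 39.7 and 57.6 in knockout liver. The 95% interval of its change was -0.39 to 0.25. That of Ugt1a9 was -1.04 to -0.22, so the intervals overlap, and the difference between the 2 changes was not tested. Ugt1a6a, which acts on simple phenols, was at 24.5, 30.5, 28.3 and 36.6 FPKM in wildtype and 40.4, 45.1, 38.3 and 34.9 in knockout liver (log2 change 0.40, SE 0.13, limma adjusted p = 0.0710). Only wildtype 12 lay above a knockout library. Ugt1a6a passed as a higher gene with median-ratio scaling (0.51, 0.0269), quantile normalization (0.0229), the length trend removed (0.0344), library weights (0.0443) and without wildtype 12 (0.0379). Its copy Ugt1a6b changed by 0.28 (limma adjusted p = 0.199), and the sum of both by 0.36 (0.105). Ugt1a5 ranged from 4.28 to 19.8 FPKM within the knockout group, and Ugt1a8 and Ugt1a10 changed by -0.30 and 0.031 (limma adjusted p = 0.998, 0.185 and 0.882 for the 3 genes).

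Ugt2a3 (ENSMUSG00000035780, chromosome 5, 87324972 to 87337195), whose enzyme glucuronidates bile acids, was the firmer of the lower Ugt genes. Its FPKM was 135, 123, 129.6 and 135 in wildtype and 77.6, 94.0, 94.3 and 75.0 in knockout liver (log2 change -0.62, SE 0.10, limma adjusted p = 0.00648). The groups did not overlap, the wildtype libraries lay within 123 to 135 FPKM, and the gene passed under each alternative, with a smallest change of -0.40 under quantile normalization (0.0409).

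Ugt2b genes, for enzymes that act on steroids and fatty acids, spread within the knockout group rather than between the groups. The windows of Ugt2b37 and Ugt2b38 are shown as similar examples of windows that held both the AP-1 letters TGANTCA and the forkhead letters GTAAACA, in capitals in this order. The window of Ugt2b35 held both in the same order too. That of Ugt2b5, 81.5% identical to the Ugt2b38 window, held neither, and Ugt2b5 also was highest in knockout 9 and lowest in knockouts 3 and 11. Any tie between these letters and the levels was not tested.
Ugt2b37 chr5:87254789-87255038 minus strand: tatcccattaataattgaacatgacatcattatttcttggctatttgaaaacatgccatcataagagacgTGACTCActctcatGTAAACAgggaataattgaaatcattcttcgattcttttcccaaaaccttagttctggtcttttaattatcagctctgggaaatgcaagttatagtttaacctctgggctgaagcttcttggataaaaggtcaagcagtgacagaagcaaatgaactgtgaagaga
Ugt2b38 chr5:87424204-87424453 minus strand: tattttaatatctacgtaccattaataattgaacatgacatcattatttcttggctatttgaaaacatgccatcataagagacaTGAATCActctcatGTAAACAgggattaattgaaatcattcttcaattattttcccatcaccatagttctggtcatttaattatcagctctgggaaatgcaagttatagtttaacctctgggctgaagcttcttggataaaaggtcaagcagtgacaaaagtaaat
The Ugt2b37 and Ugt2b38 windows were 84.8% identical. Ugt2b38 was at 48.1, 49.3, 50.5 and 65.0 FPKM in wildtype and 41.4, 91.9, 70.1 and 35.0 in knockout liver, and Ugt2b37 at 9.97, 10.8, 10.8 and 11.7 FPKM in wildtype and 5.88, 13.5, 10.3 and 5.37 in knockout liver. In both, knockout 9 was above and knockouts 3 and 11 were below all wildtype libraries, and neither gene was called (limma adjusted p = 0.901 and 0.358), nor was it without knockouts 3 and 11 (0.59, 0.0649 for Ugt2b38 and 0.12, 0.595 for Ugt2b37).

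Ugt2b1, a prominent steroid-conjugating form of liver, was at 314, 353, 326 and 305 FPKM in wildtype and 258, 698, 401 and 210.4 in knockout liver, with knockout 9 at the top and knockouts 3 and 11 at the bottom (log2 change 0.11, SE 0.32, limma adjusted p = 0.843). Its change was 0.71 without knockouts 3 and 11 and still not called (0.0762). Ugt2b5 was at 458, 456, 478 and 435 FPKM in wildtype and 239, 612, 366 and 248 in knockout liver (log2 change -0.43, SE 0.26, limma adjusted p = 0.315). Its wildtype libraries lay within 435 to 478, and its knockout libraries on both sides of them. Without knockout 9 Ugt2b5 passed (-0.71, 0.0222), while without knockouts 3 and 11 its change was 0.052 (0.890). Ugt2b36, the most abundant Ugt gene, was at 542, 525, 535 and 553 FPKM in wildtype and 303, 535, 414 and 321 in knockout liver (log2 change -0.49, SE 0.17, limma adjusted p = 0.0830). It too passed without knockout 9 (0.0153) and with library weights (0.0272), and its change shrank without knockouts 3 and 11 (-0.20, 0.334). Ugt2b34 and Ugt2b35 had changes of 0.038 and 0.13 with intervals of -0.32 to 0.39 and -0.42 to 0.67, and of 0.23 and 0.38 without knockouts 3 and 11 (0.400 and 0.373). The sum of the similar genes Ugt2b5, Ugt2b37 and Ugt2b38 changed by -0.37 (limma adjusted p = 0.386).

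The 2 Ugt3a genes, whose enzymes use other sugars than glucuronic acid, leaned in opposite directions without a call. Ugt3a1 was at 62.9, 44.0, 49.2 and 64.4 FPKM in wildtype and 37.2, 36.3, 46.4 and 41.7 in knockout liver (log2 change -0.43, SE 0.14, limma adjusted p = 0.0731) and passed without wildtype 3 (-0.53, 0.0430). Ugt3a2 was at 95.0, 82.2, 88.4 and 97.3 FPKM in wildtype and 122, 113, 91.4 and 103 in knockout liver (log2 change 0.24, SE 0.11, limma adjusted p = 0.178) and passed with quantile normalization (0.46, 0.0346). The difference between the 2 changes was not tested.

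In the Sult family only Sult1c2, a phenol-type sulfotransferase of low level, was called. Its FPKM was 4.58, 3.83, 4.40 and 3.81 in wildtype and 2.56, 2.43, 2.45 and 2.93 in knockout liver (log2 change -0.52, SE 0.09, limma adjusted p = 0.00873), without overlap between the groups. It passed under each alternative in which it was tested, and lay below the stricter filter of 5 FPKM. The 2 more abundant genes Sult1a1, for a phenol sulfotransferase, and Sult1d1, for a catecholamine sulfotransferase, were lowest in knockouts 9 and 10, whose acute phase sums were above the wildtype range but far below those of knockouts 3 and 11. Their windows are shown because the genes had this pattern in common. Capitals mark CAAAACA on either strand, the letters of the insulin response sequence known from the Igfbp1 and G6pc promoters. Sult1b1, which lacked the pattern, and Sult2a5 and Sult3a1, which lay under the filter, held these letters too.
Sult1a1 chr7:126676419-126676668 minus strand: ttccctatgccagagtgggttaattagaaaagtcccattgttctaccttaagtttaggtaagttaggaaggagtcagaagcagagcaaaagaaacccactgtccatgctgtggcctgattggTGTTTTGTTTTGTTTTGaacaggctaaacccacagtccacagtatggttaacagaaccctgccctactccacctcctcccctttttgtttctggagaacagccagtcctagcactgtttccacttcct
Sult1d1 chr5:87569007-87569256 minus strand: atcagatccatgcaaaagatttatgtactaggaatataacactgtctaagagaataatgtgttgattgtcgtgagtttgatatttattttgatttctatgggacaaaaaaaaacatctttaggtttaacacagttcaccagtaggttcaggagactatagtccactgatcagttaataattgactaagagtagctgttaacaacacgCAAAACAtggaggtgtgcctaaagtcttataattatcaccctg
In Sult1a1 the middle of the 3 matches overlaps the match on either side. Whether these letters have a part in the pattern was not tested.

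Sult1a1 (chromosome 7, 126672865 to 126676432) was at 403, 358, 396 and 259.9 FPKM in wildtype and 253, 131, 161 and 311 in knockout liver (log2 change -0.79, SE 0.27, limma adjusted p = 0.0793). Sult1d1 (chromosome 5, 87554645 to 87569027) was at 80.1, 67.6, 69.2 and 85.5 FPKM in wildtype and 64.6, 28.8, 30.3 and 73.5 in knockout liver (log2 change -0.72, SE 0.29, limma adjusted p = 0.132). In both genes knockouts 3 and 11 came near or within the wildtype range and knockouts 9 and 10 lay far below it. Without knockouts 3 and 11 both passed, Sult1a1 with -1.26 (limma adjusted p = 0.0153) and Sult1d1 with -1.32 (0.00921), and so they did without knockout 11 alone (0.0326 and 0.0498). Sult1a1 also passed with library weights (0.0355). With those 2 libraries left out 3 of 6 tested Sult genes were thus lower, where 6.40% of all tested genes were. Knockouts 3 and 11 were the highest knockout libraries of Sult1a1 and Sult1d1, so leaving them out favours a lower call of both. That fit rests on knockouts 9 and 10 alone, and its count is no separate evidence about the family.

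Sult2a8, the most abundant Sult gene and one whose enzyme sulfates bile acids, had the other order: 322, 537, 389 and 325 FPKM in knockout liver, lowest in knockouts 3 and 11, against 519.8, 416, 562 and 559.9 in wildtype (log2 change -0.41, SE 0.18, limma adjusted p = 0.154). It passed without knockout 9 (-0.57, 0.0292), and its change shrank without knockouts 3 and 11 (-0.16, 0.599). Sult2a7, of the hydroxysteroid group, was at 3.43, 0.750, 0.717 and 4.09 FPKM in knockout and 0.974, 0.946, 1.36 and 0.726 in wildtype liver, so it was high in knockouts 3 and 11 only (log2 change 0.53, SE 0.35, limma adjusted p = 0.350), and its sign turned without them (-0.20, 0.396). Sult1b1, which sulfates thyroid hormones, was at 36.8, 28.8, 30.7 and 38.0 FPKM in wildtype and 24.9, 27.6, 28.5 and 28.7 in knockout liver (log2 change -0.28, SE 0.11, limma adjusted p = 0.122). Its groups did not overlap, by a narrow margin between 28.7 and 28.8 FPKM.

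The other 19 members lay under the filter and were not tested: 2 Gst, 3 Ugt and 14 Sult genes. Sult1c1, Sult2a1, Sult2a4, Sult2a6 and Sult6b2 are listed at 0 in all 8 libraries. Sult1e1, for the estrogen sulfotransferase, reached 0.951 (knockout 3) and 0.599 FPKM (knockout 11) but at most 0.227 in the other libraries. Sult2b1, for a cholesterol sulfotransferase, had values of 0.0280, 0.310, 0.183 and 0.0534 FPKM in knockout liver and is listed at 0 in each wildtype library. Ugt1a2 and Ugt1a7c had means of 0.994 and 0.868 FPKM, just under the filter, and Ugt2a2 was between 0.130 and 1.22. Gsto2 reached 0.207 FPKM, and Gstt4, Sult2a2, Sult2a3, Sult2a5, Sult3a1, Sult3a2, Sult4a1 and Sult6b1 reached at most 0.109.

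Library by library, members of the 3 families differed in which knockout livers were affected. Summed over the family, Sult transcripts came to 875 to 1064 FPKM in wildtype and 613 to 746 in knockout liver, without overlap. Sult2a8 and Sult1a1, neither of them called and both with overlapping groups, made up the larger part, and the sum was not tested. Gst transcripts came to 9771 to 12342 FPKM in wildtype and 7226 to 10266 in knockout liver, of which the pi genes made up the larger part. Ugt transcripts came to 2075 to 2189.6 FPKM in wildtype liver and to 1461, 2701, 1934 and 1440.0 in knockout liver, and the Ugt2b genes alone went from 937 (knockout 11) to 2175 (knockout 9). Without knockouts 3 and 11, 7 Gst genes, 1 Ugt gene (Ugt2a3) and 3 Sult genes were lower and 0 members higher, where 6.40% and 1.94% of all tested genes were, and the family medians were -0.33 (Gst), 0.052 (Ugt) and -0.41 (Sult), against -0.011 over all tested genes. Only the knockout libraries in which Sult1a1 and Sult1d1 were lowest remain in that fit, which favours the Sult calls. 

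**Figure D3:**
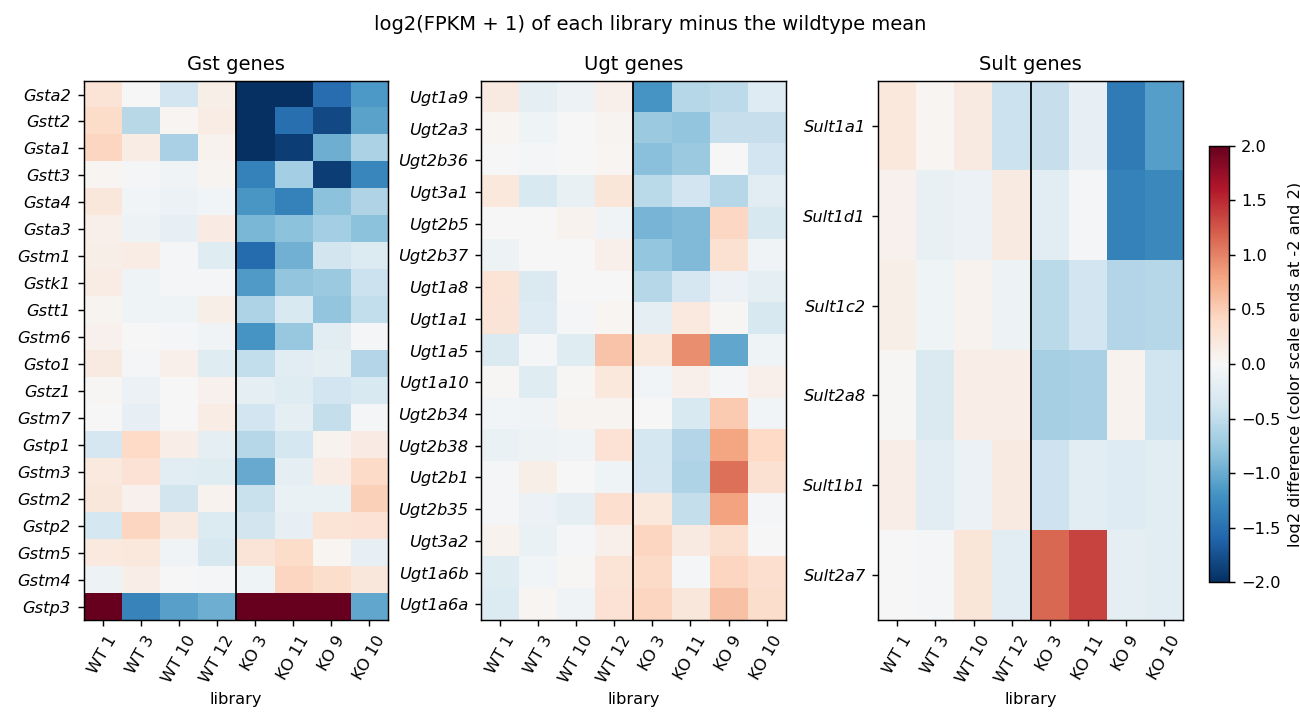
Color gives the log2(FPKM + 1) of each library (columns, with knockouts 3 and 11 placed together) minus the wildtype mean of that gene (rows, 1 panel per family, ordered by log2 change), blue for lower and red for higher, with the scale ending at -2 and 2. Gsta and Gstt genes are blue across the knockout columns, Ugt2b36, Ugt2b5 and Ugt2b37 are blue in knockouts 3 and 11, Ugt2b1, Ugt2b35 and Ugt2b38 are reddest in knockout 9, and Sult1a1 and Sult1d1 are darkest in knockouts 9 and 10.

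**Figure D4:**
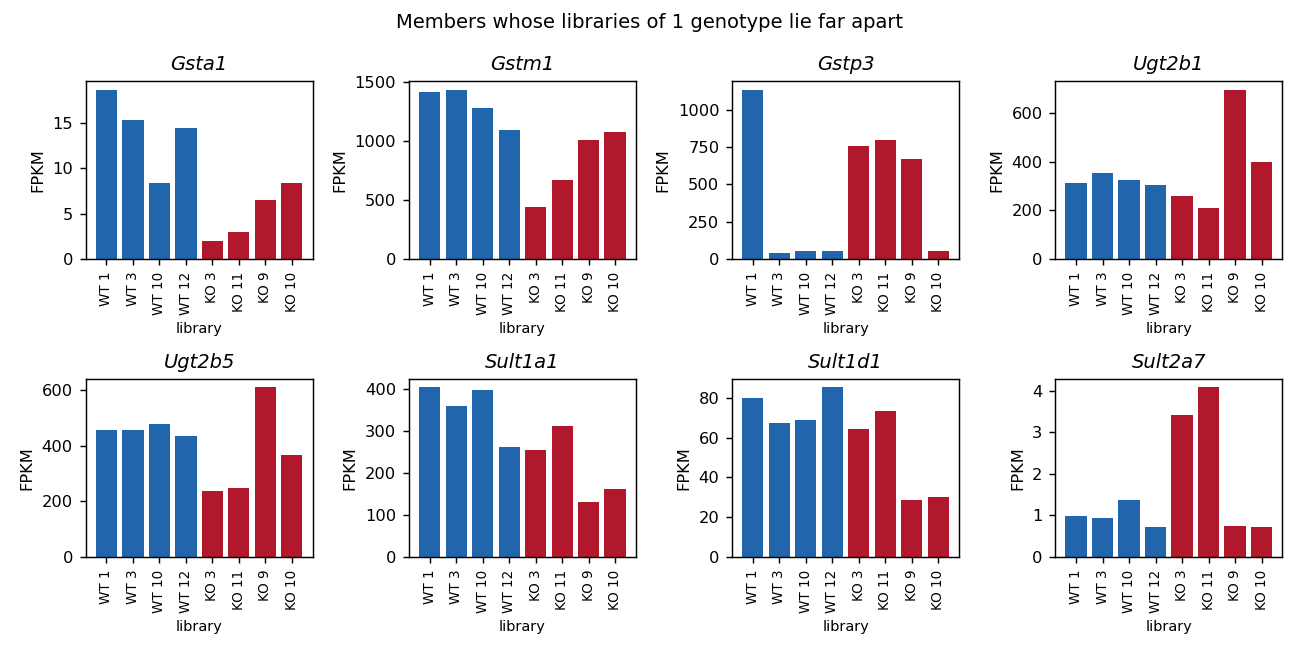
Bars give the FPKM of 8 members in each library (blue wildtype, red knockout; each y axis starts at 0). These members were chosen after their values were seen: Gstp3 is at 1135 FPKM in wildtype 1 and at 52.0 in knockout 10, against the rest of each group, and Sult2a7 is at 3.43 and 4.09 in knockouts 3 and 11.

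Transcript length was lower among these genes than in the table as a whole. The median over the longest transcripts was 1180.5 bases for tested Gst genes, 2227 for Ugt and 1994.5 for Sult genes, against 3064 over all tested genes with a length. With the trend of values along length removed from each library, 6 Gst genes, 1 Ugt gene and 1 Sult gene were lower and 1 Ugt gene was higher, where 5.76% and 5.08% of all tested genes were. The genes still lower were Gsta2, Gsta3, Gsta4, Gstk1, Gstt2, Gstt3, Ugt2a3 and Sult1c2. Their changes then lay between -1.67 (Gsta2) and -0.38 (Sult1c2), and the medians were -0.24 over the Gst, 0.080 over the Ugt and -0.33 over the Sult genes, against 0.012 over all genes.

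Promoter windows were found for 54 of the 62 members in RefSeq (GRCm38.p6), and 4 motifs were searched on both strands in the 250 bases before the start. A member was counted once if any of its windows matched, with 65 windows over these members. The background was counted by window, so the member counts and the background shares are unlike measures. TGACNNNGC occurred in 3 members (Gsta3, Gstm5 and Gstm7), and in 10.2% of the 32851 windows of all genes. TGANTCA occurred in 11 members, 4 of them Ugt2b genes, and in 6.75% of all windows. The forkhead letters GTAAACA occurred in 4 members (Ugt1a2, Ugt2b35, Ugt2b37 and Ugt2b38), and in 3.17% of all windows. CAAAACA occurred in 7 members, among them Gstm1, Sult1a1, Sult1b1 and Sult1d1, and in 5.56% of all windows. Of the 9 called members with a window, Gsta3 alone held any of the 4 motifs. The 8 members without a window were Gsta4, Gstt2, Sult2a1, Sult2a2, Sult2a7, Sult4a1, Ugt1a6b and Ugt3a2. A match is a description of these letters and not of a bound site, and a window without a match says nothing of bases further upstream.

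Genes that work beside the 3 families were read from lists. Of 23 tested genes of other conjugation enzymes 7 were lower and 1 higher (30.4% and 4.35%, against 11.7% and 2.70% of all tested genes), with a median log2 change of -0.26 against -0.076. Inmt, an N-methyltransferase gene, went from 591 ± 157 to 153 ± 56.4 FPKM (SD, n = 4; log2 change -1.96, SE 0.26, limma adjusted p = 0.00394). With log2 changes and limma adjusted p in this order, the microsomal transferase gene Mgst3 (-0.91, 0.0102), the acyl-CoA synthetase gene Acsm3 (-0.51, 0.0140), the quinone reductase gene Nqo2 (-0.65, 0.0156) and the bile acid amidation gene Baat (-0.55, 0.0210) were lower, and Acsm2 (0.72, 0.00659), which activates acids for glycine conjugation, was higher. With the length trend removed 3 of the list's genes were lower, among them neither Mgst3 nor Baat (0.0574 and 0.0510). The calls of Acsm3 and Baat were lost without knockouts 3 and 11 (-0.39, 0.0773, and -0.37, 0.106).

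Of 23 tested genes for the supply, use or turnover of cofactors 3 were lower and 3 higher, with a median of 0.0085. These shares were 13.0% and 13.0%, against 11.7% and 2.70% of all tested genes, so that the lower share is near the background. Since not all genes of this list supply a cofactor, the counts do not measure supply. Ugp2, which makes UDP-glucose, the source of the Ugt donor, was at 243, 239, 285 and 215 FPKM in wildtype and 72.7, 127, 132 and 91.7 in knockout liver (log2 change -1.24, SE 0.19, limma adjusted p = 0.00505). Its groups did not overlap, and it was lower without knockouts 3 and 11 too (-0.91, 0.0119). The glycogen synthase gene Gys2 (-0.65, limma adjusted p = 0.0442) and Cth, which forms the cysteine of glutathione (-0.71, 0.0158), were lower as well. Slc26a1, a sulfate transporter gene, rose by 0.55 (0.0229), and Oplah and Chac1 of glutathione turnover by 0.58 (0.0164) and 0.77 (0.0242). Without knockouts 3 and 11 the calls of Slc26a1 (0.32, 0.0700), Oplah (0.57, 0.0716), Chac1 (0.53, 0.114) and Gys2 (-0.57, 0.181) were lost, and with the length trend removed those of Cth (0.0644) and Gys2 (0.0750). Not called, and named after their values were seen, were Ugdh, which oxidizes UDP-glucose to the donor (0.27, 0.215), Papss2, which makes PAPS (-0.19, 0.656), and Gclc and Gclm of glutathione synthesis (-0.55, 0.173, and 0.0085, 0.970). Gclc was at 36.8, 83.5, 63.7 and 35.5 FPKM in knockout liver, low in knockouts 3 and 11 like Gsta1 and Gsta2.

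Among 13 tested genes of conjugate export and cleavage 3 were lower and 0 higher (23.1% lower, against 11.7% of all tested genes), with a median of -0.34. These were Abcc3, which exports conjugates to blood (22.0 ± 5.84 FPKM in wildtype and 8.23 ± 2.47 in knockout liver, SD, n = 4; log2 change -1.32, SE 0.23, limma adjusted p = 0.00782), the bile salt export pump gene Abcb11 (-1.23, limma adjusted p = 0.00931) and the uptake transporter gene Slco1a4 (-0.84, 0.0162). Among 25 tested regulators 3 were lower and 2 higher, with the lower share at the background (12% and 8%, against 11.7% and 2.70% of all tested genes), and a median of 0.048. Nr1i3, the gene of the receptor CAR, was at 133, 87.3, 128 and 110.4 FPKM in wildtype and 54.3, 69.5, 54.8 and 69.9 in knockout liver (log2 change -0.86, SE 0.15, limma adjusted p = 0.00823), without overlap. Nfe2l2, the gene of Nrf2, was at 33.2, 26.0, 33.5 and 27.2 FPKM in wildtype and 14.2, 25.2, 18.7 and 19.5 in knockout liver (log2 change -0.62, SE 0.16, limma adjusted p = 0.0339), but its call was lost when knockouts 3 and 11 were left out (-0.44, 0.136) and when the length trend was removed (0.0602). The bZIP factor gene Maf was lower (-0.62, 0.0153), and Hnf4a (0.43, 0.0494) and Foxa3 (0.54, 0.0413), genes of hepatocyte factors, were higher, neither of them without knockouts 3 and 11 (0.227 and 0.143).

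Known Nrf2 target genes outside the 3 families were called lower at about the background share in the fit with all libraries. Of 24 tested 3 were lower (Mgst3, Txn1 and Akr1b8) and 1 higher (12.5% and 4.17%), a median of -0.10. The thioredoxin gene Txn1 changed by -0.62 (limma adjusted p = 0.0165), Akr1b8, an aldo-keto reductase gene, by -0.37 (0.0494) and the heme oxygenase gene Hmox1 by 0.48 (0.0273). With the length trend removed 0 of these 24 were lower. Without knockouts 3 and 11 the calls of Akr1b8 and Hmox1 were lost (0.227 and 0.0930). Cbr1, named after its values were seen, was then called lower (-0.62, 0.0177). In that fit 3 of the 24 were again lower (12.5%), against 6.40% of all tested genes, and 0 were higher. The list shares Mgst3, Ephx1, Gclc, Gclm, Slc7a11 and Ugdh with the other lists.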

How the data were processed

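The authors deposited a table of FPKM for 25690 Ensembl genes in 8 libraries. The unit was inferred from the values and the submitters' processing notes, which name TopHat2 2.1.0, HTSeq and Cufflinks 2.2.1 with build mm10 and give no role. Total RNA was isolated with Trizol and made into Illumina libraries, per the labels' protocols. The sources used here do not give the annotation, read length, strand setting or handling of reads shared by copies. Symbols, positions and transcript lengths came from GENCODE mouse M21 on the same build, which named 24807 genes.

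The 10250 genes averaging 1 FPKM or more were tested. In R 4.3.3, limma 3.58.1 compared the genotypes on log2(FPKM + 1) with no covariate, a variance trend on mean level and tests in both directions, adjusted by Benjamini-Hochberg over all tested genes at 0.05. Low genes have their change understated on this scale. Count models were not applied, since FPKM are not counts. Depth was estimated from genes with 1 transcript longer than 1500 bases. A 0 occurs in some library for 37 tested genes, 0 of them members. Sequence sharing is the share of 50-base windows of a gene's longest transcript found in a transcript of another gene, on the annotated strand.

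The text names Foxo1, the called members, the 8 most abundant members of each family and, of the 5 lists of other pathway genes, called genes, up to 6 per list by adjusted p. The other members are listed as well, and of the cell type lists summed levels and defining markers are given. The members, lists and alternatives were chosen with earlier results of these data known. Alternatives were other pseudocounts, filters, scalings, removal of the length trend (loess, span 0.5), a robust variance model, library weights, a replicate block, and leaving out libraries. The limma fit was tested on simulated data with set changes and independent noise, without a split among knockout libraries or a length trend. The other steps were not simulated.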

Additional observations from a re-analysis of the deposited data

Results flagged for a closer look

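Libraries were compared within each genotype for the 43 tested members, 86 groups of 4, and chance alone would mark about 1 in 20 groups. In 3 groups a single library lay far from the other 3, measured by its gap to the nearest of them as a share of the group's range. Gstp3 in wildtype 1 was at 1135 FPKM, and the other wildtype libraries were at 42.1 to 54.4. Gsta4 in wildtype 1 was at 140.3 FPKM, against 111 to 116. Ugt2b38 in wildtype 12 was at 65.0 FPKM, against 48.1 to 50.5. Without wildtype 1 the log2 change of Gsta4 was -0.91 (limma adjusted p = 0.0275) and that of Gstp3 2.95 (0.0802).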

How the results depend on the processing

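Calls of Gsta2, Gsta3, Gsta4, Gstk1, Gstt2, Gstt3 and Ugt2a3 held under each alternative run, and that of Sult1c2 under each in which it was tested. Counts of lower Gst genes stayed between 6 and 10 under all alternatives, with 0 higher. The count of lower Ugt genes, 2, was 1 with no filter on low values, median-ratio scaling, quantile normalization, the length trend removed and without knockouts 3 and 11, 3 with library weights, and 1 to 3 without single libraries. The count of higher Ugt genes, 0, was 1 with median-ratio scaling, the length trend removed and library weights (Ugt1a6a), 2 with quantile normalization (Ugt1a6a and Ugt3a2), and 0 to 1 without single libraries. The count of lower Sult genes, 1, was 0 at a minimum mean of 5 FPKM, where Sult1c2 is left out, 2 with library weights, 3 without knockouts 3 and 11, and 1 to 3 without single libraries. The cause was not tested. The log2 change of Foxo1 was -3.24 with a pseudocount of 0.1. The share of higher genes among all calls was 18.8% as reported, 40.2% with median-ratio scaling, 41.9% with quantile normalization and 46.9% with the length trend removed. Among all genes there were 277 higher and 1195 lower genes. These counts were 485 and 720, 470 and 652, and 516 and 585 under the same 3 alternatives, 199 and 656 without knockouts 3 and 11, and 102 to 360 and 599 to 1294 without single libraries, lowest without wildtype 1. With library weights 401 genes were higher and 1369 lower of 10250 tested.

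Signs turned for members that were not called. The log2 changes were 0.17 (Gstm2), 0.26 (Gstm3), -0.064 (Gstm5), 0.11 (Gstp1), -0.20 (Sult2a7), -0.57 (Ugt1a5), 0.12 (Ugt2b37) and 0.052 (Ugt2b5) without knockouts 3 and 11, 0.16 (Gstm2), 0.066 (Gstm3), 0.047 (Gstz1) and 0.10 (Ugt1a1) with quantile normalization, 0.22 (Gstm2), 0.059 (Gstm3), 0.16 (Gstp1) and 0.043 (Ugt1a1) with the length trend removed, 0.049 (Gstm2) and 0.037 (Ugt1a1) with median-ratio scaling, -0.0097 (Ugt2b34) with library weights, and -0.013 and -0.0058 (Ugt1a5) with pseudocounts of 0.1 and 0.5. Without single libraries the ranges were -0.24 to 0.071 (Gstm2), -0.35 to 0.11 (Gstm3), -0.11 to 0.15 (Gstp2), -0.16 to 0.014 (Ugt1a1), -0.051 to 0.10 (Ugt1a10), -0.31 to 0.35 (Ugt1a5), -0.21 to 0.36 (Ugt2b1), -0.12 to 0.15 (Ugt2b34), -0.10 to 0.33 (Ugt2b35) and -0.17 to 0.28 (Ugt2b38). As part of a sum of similar copies the change was -0.12 for Gstp2, -0.37 for Ugt2b38 and -0.28 for Ugt1a5, Ugt1a6a, Ugt1a6b and Ugt1a10. Summing copies was chosen after seeing the data.

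The numbers 3 and 10 occur in both groups. Across 10250 genes the correlation of deviations from the group means was -0.0079 and 0.022 for the libraries that share a number. For pairs without a shared number it ran from -0.11 to 0.15. Values within that range cannot decide whether libraries with the same number are paired. With the number as a replicate block 8 Gst, 2 Ugt and 1 Sult gene were lower and 0 members higher, as in the fit without it, and the change of Gstp2 was -0.0082. Of all 10250 tested genes 1289 were lower and 314 higher with that block. FPKM give no counts, so genes near the filter, such as Ugt1a8 and Sult2a7, have no stated counting error.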
